A study of Caenorhabditis elegans with 12 samples.

Results

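The genes syp-6, enri-2, mip-1, memi-2 and picd-1 were followed across wild-type Caenorhabditis elegans kept with or without lithium chloride (LiCl). They were found by name among the 8187 named genes of the array, with symbols taken from the WBcel235 annotation by gene identifier. All 5 genes carried at least 1 named probe and memi-2 carried 2, which gives 6 probes of 22370 in the table. The sequence names are F57B10.4 for syp-6, T24C2.2 for enri-2, C38D4.4 for mip-1, Y62E10A.14 for memi-2 and F56E10.1 for picd-1. The genes were picked with their values in LiCl and control worms already known, so their differences between the groups are given as a description, with no test.

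The LiCl group was 6 samples of N2 hermaphrodites grown at 20 °C from the egg stage, then held at 25 °C for 48 h on nematode growth medium with 10 mM LiCl. The control group was 6 samples of the same strain, temperatures and times on the medium alone. Each sample was 50 picked worms, so a level is that of the whole animal, and the labels name no worm age. Amplified Cy5-labelled RNA of each sample was hybridised to its own array with Cy3-labelled RNA pooled from mixed-stage N2 worms. Per the series' design text the samples are biological replicates from cultures of their own, and no dye swap is named.

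In C. elegans the adult hermaphrodite gonad is a large source of RNA, and its cells pass through mitosis, meiotic prophase and oocyte growth in spatial order. During meiotic prophase paired chromosomes are held together by the synaptonemal complex, a protein lattice between their axes. Germ cells also carry granules of RNA and protein at the nuclear surface, where small RNAs that are inherited by later generations are sorted, and they load oocytes with the maternal products that run the first divisions. SYP-6 is a component of the central region of the synaptonemal complex. ENRI-2 is known as a partner of nuclear Argonaute proteins that limits nuclear RNA interference and its inheritance. MIP-1 is a LOTUS-domain protein of germ granules that binds MEG-3, and MEMI-2 belongs to a small family of maternal proteins needed for the meiosis II division after fertilisation. picd-1 is of another kind: it is named for a CABIN1 domain and for its interaction with pry-1, the Axin gene of Wnt signalling. No germline role is taken for picd-1 below.

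The deposited values are processed log ratios, read here as log2 of sample over reference. The log base and any scale factor are not stated, so sizes are given in deposited log ratio units and not as folds. No source states that the sample is on top of the ratio. This direction is taken as likely, from the Cy5 labelling of the samples and from 21 of 24 neuropeptide genes lying below 0 in LiCl worms and 20 of 24 in control worms. If it were the opposite, the sign of every level and difference below would turn and ranks among probes would run from the other end, while SDs and correlations would stay as given. Array medians lay between 0.018 and 0.044, interquartile ranges between 1.33 and 1.34, and between 16 and 150 probes had no value on an array. The 6 probes had a value on all 12 arrays.

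syp-6, enri-2, mip-1 and both memi-2 probes were lower in LiCl worms, by 0.46 to 0.96, and picd-1 was higher by 0.78. All 6 probes had means above the mixed-stage reference in both groups, with mip-1 close to it in LiCl worms. The SD was larger on the LiCl arrays than on the control arrays in all 6 probes, though barely so for syp-6. This held for 62.5% of all probes. None of the 6 probes of their close relatives passed the test between the groups, where 8% of all probes did.

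syp-6 had log ratios from 0.22 to 0.82 with a median of 0.62 on the 6 LiCl arrays, against 1.11 to 1.59 with a median of 1.44 on the 6 control arrays. The groups did not overlap, and LiCl replicate 1 was the lowest array. The mean was 0.61 ± 0.22 (SD, n = 6) in LiCl worms and 1.38 ± 0.21 (SD, n = 6) in control worms, a difference of -0.77. The spread of syp-6 was alike in both groups, unlike that of the other 4 genes.

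enri-2 had log ratios from -0.05 to 1.55 with a median of 1.17 in LiCl worms, against 1.67 to 2.44 with a median of 1.93 in control worms. The highest LiCl array lay just under the lowest control array, and LiCl replicate 2 lay far below the other LiCl arrays. The mean was 1.01 ± 0.58 (SD, n = 6) in LiCl worms and 1.97 ± 0.30 (SD, n = 6) in control worms, a difference of -0.96. Without LiCl replicate 2 the difference was -0.75, the value nearest to 0 when 1 array was left out.

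mip-1 had log ratios from -0.28 to 0.44 with a median of 0.22 in LiCl worms, against 0.81 to 0.99 with a median of 0.85 in control worms. The 6 control arrays were nearly alike, and all 6 LiCl arrays lay below them, with replicates 1 and 2 below 0. The mean was 0.14 ± 0.30 (SD, n = 6) in LiCl worms and 0.87 ± 0.067 (SD, n = 6) in control worms, a difference of -0.72.

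memi-2 was measured by 2 probes. On probe 1 the log ratios ran from 0.41 to 1.27 with a median of 1.03 in LiCl worms, against 1.08 to 1.59 with a median of 1.47 in control worms. On probe 2 they ran from 0.46 to 1.18 with a median of 0.86 in LiCl worms, against 1.35 to 1.57 with a median of 1.49 in control worms. The groups overlapped on probe 1, where LiCl replicates 3, 4 and 5 reached into the control range, and did not overlap on probe 2. The means were 0.93 ± 0.36 (SD, n = 6) in LiCl worms and 1.40 ± 0.21 (SD, n = 6) in control worms on probe 1, a difference of -0.46. On probe 2 they were 0.85 ± 0.23 (SD, n = 6) in LiCl worms and 1.48 ± 0.072 (SD, n = 6) in control worms, a difference of -0.63. The probes thus gave the same sign, and both had LiCl replicate 1 as the lowest LiCl array and control replicate 1 as the lowest control array.

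picd-1 had log ratios from 0.97 to 3.42 with a median of 1.89 in LiCl worms, against 0.75 to 1.65 with a median of 1.23 in control worms. LiCl replicates 3, 4 and 5 lay above every control array, and replicates 1, 2 and 6 lay within the control range. The mean was 2.00 ± 0.90 (SD, n = 6) in LiCl worms and 1.22 ± 0.29 (SD, n = 6) in control worms, a difference of 0.78. This value leaned on LiCl replicate 3, without which it was 0.49.

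**Figure D1:**
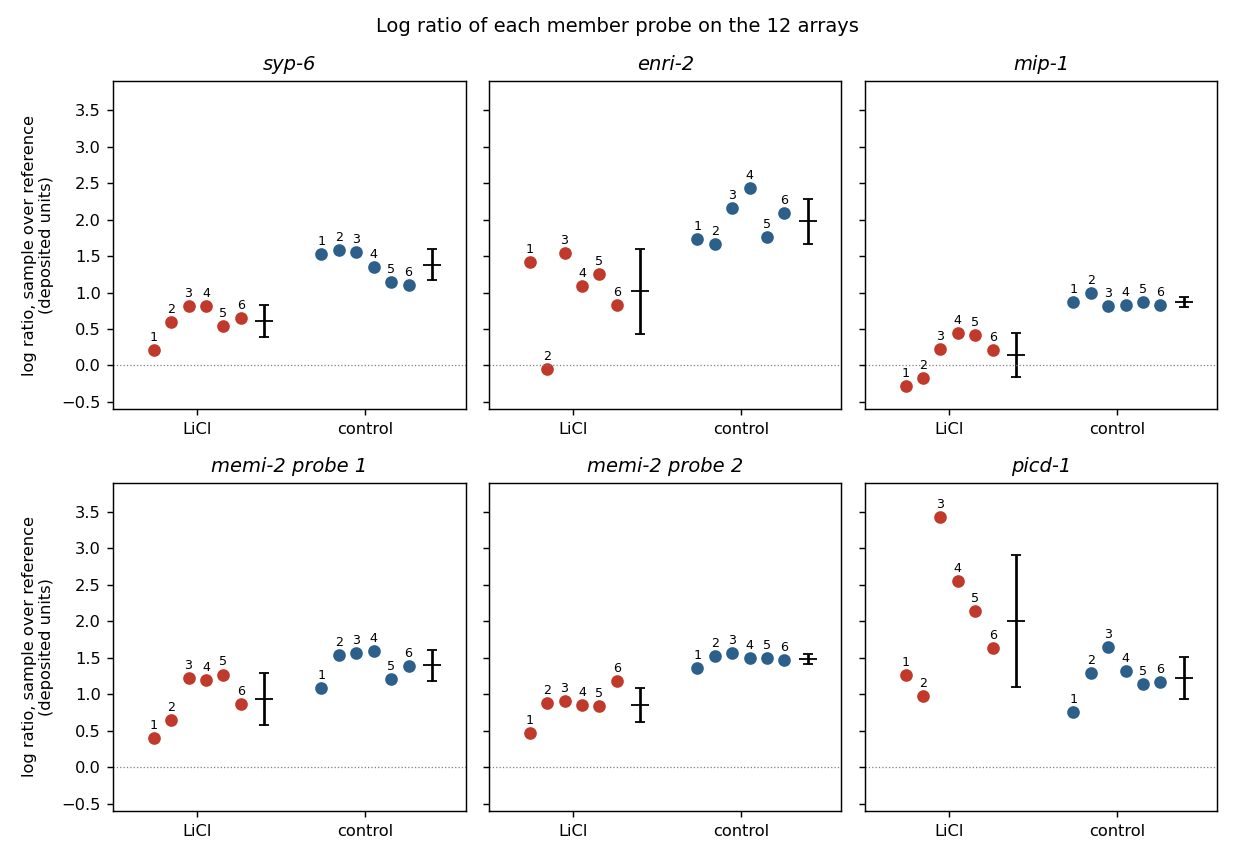
The log ratio of each of the 6 probes (vertical axis, deposited units, sample over mixed-stage reference) is plotted for the 6 LiCl and the 6 control arrays, with the replicate number above each point and the mean with its SD beside each group. The groups do not overlap for syp-6, enri-2, mip-1 and memi-2 probe 2, while for picd-1 3 LiCl arrays lie above all control arrays.

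All LiCl arrays lay below all control arrays for 4 of the 6 probes, whereas this held for 3% of all 22370 probes, and nothing is read from that since the genes were chosen on this contrast. By limma with Benjamini-Hochberg adjustment at 0.05, 8% of all probes were called, 4.5% higher and 3.5% lower in LiCl worms. In whole worms, fewer germ cells and less RNA per germ cell cannot be told apart.

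The 4 arrays of lowest weight in the fit (weights were computed with the groups known) were control replicate 5 and LiCl replicates 1, 2 and 6. These LiCl arrays were the 3 lowest of their group for mip-1, memi-2 probe 1 and picd-1. On the 8 other arrays picd-1 averaged 2.71 on 3 LiCl arrays and 1.24 on 5 control arrays, a difference of 1.47. On the same 8 arrays the difference was -0.70 for syp-6, -0.72 for enri-2, -0.50 for mip-1 and -0.62 for memi-2 probe 2. It was -0.20 for memi-2 probe 1, so the probes of this gene lay further apart there than on all 12 arrays. The part of array quality in these differences was not tested.

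The level against the mixed-stage reference was fitted as the group mean against 0. It comes from the same arrays as the contrast on which the genes were chosen, so it is not independent of that choice. The reference is 1 pooled RNA, so these tests leave out its own spread. The fit gave each probe a single variance for both groups, so the SE of a level was the same in LiCl and control worms. For mip-1 and picd-1 the SD was larger in LiCl worms (0.30 against 0.067, and 0.90 against 0.29). Such unlike spreads can make the p too small in LiCl worms and too large in control worms. The probes of all 5 genes lay above the reference in control worms, and those of all but mip-1 in LiCl worms. By limma with Benjamini-Hochberg adjustment, 5 of 6 probes passed above 0 in LiCl worms, where 25.4% of all probes did, and 6 of 6 in control worms, where 26.6% did. With the ratio turned, the same probes would pass below 0, beside 25.6% of all probes in LiCl worms and 26.5% in control worms. Nothing about the genes as a set is read from these counts.

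The mean log ratio of syp-6 passed above 0 in LiCl worms (limma, adjusted p = 0.000388) and in control worms (limma, adjusted p = 2.92e-07). In both groups all 6 arrays were above 0. It stood above that of 78.9% of all probes in LiCl worms and of 96.2% in control worms (21.1% and 3.8% with the ratio turned). enri-2 passed in LiCl worms (limma, adjusted p = 0.000392), where 5 of 6 arrays were above 0, and in control worms (limma, adjusted p = 1.21e-06), where all 6 were. It stood above 90.1% of probes in LiCl worms and 99.3% in control worms (9.87% and 0.706% with the ratio turned).

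mip-1 did not pass in LiCl worms (mean 0.14 ± 0.11, SE, limma, adjusted p = 0.309), where 4 of 6 arrays were above 0. It passed in control worms (mean 0.87 ± 0.11, SE, limma, adjusted p = 1.87e-05), with all 6 arrays above 0. It stood above 56.2% of probes in LiCl worms, near the middle of the array, and above 87% in control worms (43.8% and 13.0% with the ratio turned). Over all 6 LiCl arrays, mip-1 transcript was thus not distinguishable from the mixed-stage level at this number of arrays. On the 3 LiCl arrays of higher weight it averaged 0.36, from 0.23 to 0.44, and its level was not tested on these alone.

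Both memi-2 probes passed in each group (limma, adjusted p between 5.79e-08 and 4.43e-05). Probe 1 stood above 88.5% of probes in LiCl worms and 96.4% in control worms (11.5% and 3.63% with the ratio turned). Probe 2 stood above 86.4% in LiCl worms and 97.1% in control worms (13.6% and 2.86% with the ratio turned). picd-1 passed in LiCl worms (limma, adjusted p = 1.97e-05) and in control worms (limma, adjusted p = 0.00116). It stood above 98.3% of probes in LiCl worms and 94.4% in control worms (1.7% and 5.58% with the ratio turned), the reverse order of the other 4 genes.

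**Figure D2:**
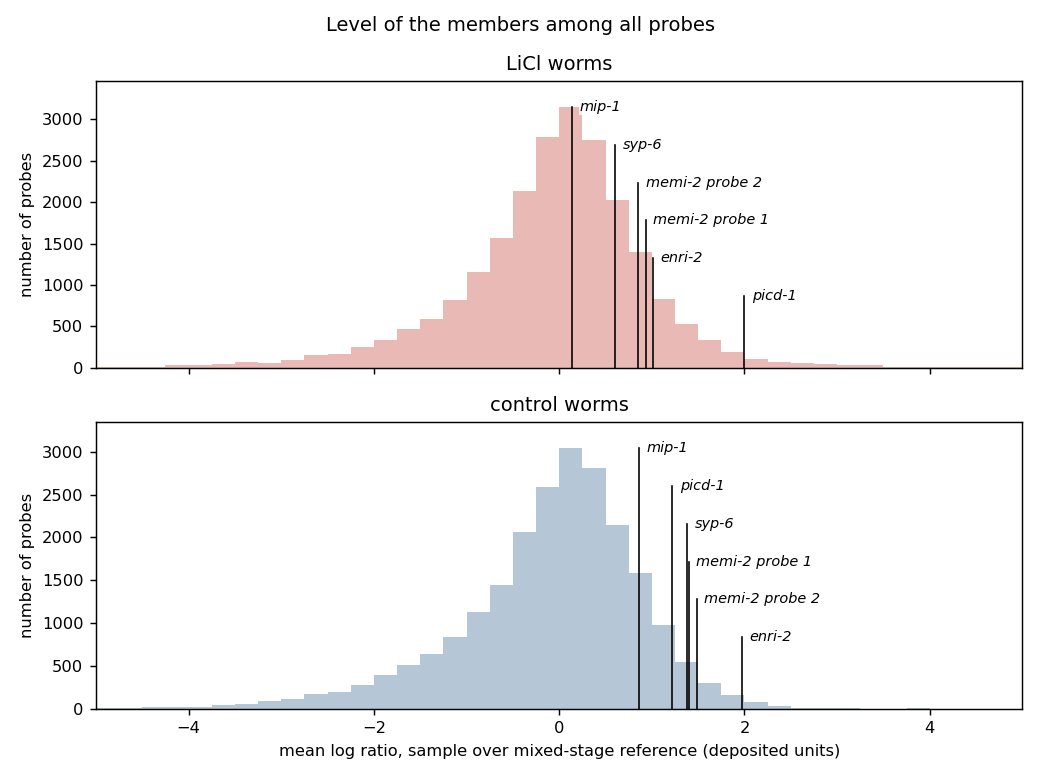
Bars count all probes by their mean log ratio over the mixed-stage reference (horizontal axis, deposited units) in LiCl worms (upper panel) and control worms (lower panel), and vertical lines mark the 6 probes. In control worms all 6 lie on the right-hand side of the distribution, and in LiCl worms mip-1 lies near its centre at 0.14 while picd-1 lies at 2.00.

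The spread between LiCl arrays was 4.5 times that between control arrays for mip-1, 3.16 times for memi-2 probe 2 and 3.1 times for picd-1. It was 1.91 times for enri-2, 1.7 times for memi-2 probe 1 and 1.04 times for syp-6. The median ratio over all probes was 1.18, and 62.5% of all probes had the larger SD in LiCl worms. For mip-1 and memi-2 probe 2 the ratio came with control SDs of 0.067 and 0.072, against a median control SD of 0.408 over all probes. These ratios come from the arrays on which the genes were chosen, a choice that can favour small spread within groups. They are descriptions and were not tested.

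syp-6, enri-2, mip-1 and memi-2 have close relatives that carry a probe, and the relatives were tested in the fit over all probes. They are syp-5, which acts with syp-6 in the synaptonemal complex, enri-1, mip-2, which binds MIP-1 in germ granules, and memi-1 and memi-3 of the memi family. None of their 6 probes passed the test (limma with Benjamini-Hochberg adjustment), against 8% of all probes. Only 1 of them, syp-5, had an unadjusted p under 0.05, against 22.8% of all probes. The mean was lower in LiCl worms for 5 of the 6 probes, against 48.3% of all probes.

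syp-5 had log ratios from 0.56 to 1.92 with a median of 1.33 in LiCl worms, against 1.39 to 2.07 with a median of 1.82 in control worms, and the groups overlapped. Its difference was -0.51 ± 0.23 (SE, limma, adjusted p = 0.208), beside -0.77 for syp-6. enri-1 lay near the reference in both groups, at -0.16 ± 0.47 (SD, n = 6) in LiCl worms and 0.28 ± 0.44 (SD, n = 6) in control worms. Its difference was -0.44 ± 0.26 (SE, limma, adjusted p = 0.345), beside -0.96 for enri-2.

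mip-2 was at 0.87 ± 0.33 (SD, n = 6) in LiCl worms and 1.01 ± 0.19 (SD, n = 6) in control worms. Its difference was -0.14 ± 0.17 (SE, limma, adjusted p = 0.691), beside -0.72 for mip-1, and it became 0.06 on the 8 arrays of highest weight. memi-3 was at 1.33 ± 0.12 (SD, n = 6) in LiCl worms and 1.72 ± 0.40 (SD, n = 6) in control worms, a difference of -0.39 ± 0.19 (SE, limma, adjusted p = 0.242). memi-3 was the only one of these 12 probes of genes and relatives with the smaller SD in LiCl worms, 0.29 times that of the controls.

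memi-1 differed by 0.06 ± 0.19 (SE, limma, adjusted p = 0.901) on probe 1 and by -0.23 ± 0.25 (SE, limma, adjusted p = 0.638) on probe 2. On probe 1 the sign turned with quantile normalization, to -0.06. Probe sequences were not used here, and whether a memi-2 probe also binds memi-1 or memi-3 RNA was not tested. The difference between a gene and its relative involves the contrast that chose the gene, so it was not tested either. It was -0.27 for syp-6 minus syp-5, -0.52 for enri-2 minus enri-1 and -0.58 for mip-1 minus mip-2.

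Most of the relatives were also above the reference. syp-5, mip-2, memi-1 and memi-3 lay above the reference in both groups (limma, adjusted p at most 8.77e-05), whereas enri-1 did not pass in LiCl worms (limma, adjusted p = 0.51) or control worms (limma, adjusted p = 0.22).

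How the probes varied together was examined within each group, where the difference between the group means does not enter. The arrays are those on which the genes were chosen, and a choice on that contrast can favour probes with small spread within groups. The correlations are thus not fully independent of the choice. The points of a pair are 6 arrays that share a worm sample, a labelling reaction and an array normalization for both probes. Over the 15 pairs of probes, the median Pearson correlation was 0.65 in LiCl worms, with 13 pairs positive, and 0.22 in control worms, with 10 positive. No pair of the 30 passed in either group after Benjamini-Hochberg adjustment (exact permutation test, two-sided, smallest adjusted p = 0.111), by Pearson or by Spearman. With 6 arrays the smallest possible exact permutation p is 0.00139, so few outcomes could pass over 30 tests. By Spearman a single pair could not pass alone even at a perfect rho. The lack of a pass thus does not show that the probes vary apart. Unadjusted, 1 pair in LiCl worms and 3 in control worms had an exact permutation p under 0.05 by Pearson, and 0 in LiCl worms and 1 in control worms by Spearman.

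The higher median in LiCl worms was not kept when arrays at the ends were left out. Without the 2 arrays farthest from the median of the first-named probe, it was -0.05 in LiCl worms, with 7 of 15 pairs positive, and 0.08 in control worms, with 8 positive. For pairs that begin with mip-1 or memi-2 probe 1 these were LiCl replicates 1 and 2. Leaving out end arrays narrows the range of the first-named probe, which can by itself bring r nearer to 0. What the higher median rested on was thus not tested.

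In LiCl worms the closest pair was mip-1 with memi-2 probe 1 (r = 0.94, exact permutation p = 0.00833, adjusted p = 0.111; rho = 0.83, exact permutation p = 0.0583, adjusted p = 0.51). Without LiCl replicates 1 and 2, its r was 0.61. In control worms the same pair had an r of -0.01 (exact permutation p = 0.989, adjusted p = 0.989; rho = -0.37, exact permutation p = 0.497, adjusted p = 0.785), and -0.84 without control replicates 2 and 3.

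picd-1 and memi-2 probe 1 were positively related in both groups, though the mean of picd-1 was higher and that of memi-2 lower in LiCl worms. Their r was 0.82 in LiCl worms (exact permutation p = 0.0528, adjusted p = 0.317; rho = 0.77, exact permutation p = 0.103, adjusted p = 0.51) and was 0.64 without the 2 end arrays. It was 0.86 in control worms (exact permutation p = 0.00972, adjusted p = 0.111; rho = 0.94, exact permutation p = 0.0167, adjusted p = 0.5), and 0.58 without the 2 end arrays. LiCl replicates 3, 4 and 5 were the 3 highest LiCl arrays of both probes.

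memi-2 probe 2 and picd-1 had an r of 0.19 in LiCl worms (exact permutation p = 0.767, adjusted p = 0.885) and 0.96 in control worms (exact permutation p = 0.0111, adjusted p = 0.111). Their rho was 0.20 in LiCl worms (exact permutation p = 0.714, adjusted p = 0.892) and 0.71 in control worms (exact permutation p = 0.136, adjusted p = 0.51). Without the 2 end arrays their r was 0.18 in LiCl worms and 0.50 in control worms.

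The 2 memi-2 probes, which share a gene, had an r of 0.45 in LiCl worms (exact permutation p = 0.399, adjusted p = 0.743) and 0.80 in control worms (exact permutation p = 0.0403, adjusted p = 0.302). Their rho was 0.14 in LiCl worms (exact permutation p = 0.803, adjusted p = 0.951) and 0.54 in control worms (exact permutation p = 0.297, adjusted p = 0.637). Without the 2 end arrays their r was -0.98 in LiCl worms and 0.51 in control worms, so 4 LiCl arrays alone gave the opposite sign.

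The r of enri-2 differed in sign from pair to pair, and none of its pairs passed. With mip-1 its r was 0.33 in LiCl worms (exact permutation p = 0.569, adjusted p = 0.813) and -0.73 in control worms (exact permutation p = 0.0833, adjusted p = 0.357). With syp-6 it was -0.07 in LiCl worms (exact permutation p = 0.89, adjusted p = 0.989) and -0.20 in control worms (exact permutation p = 0.711, adjusted p = 0.885). The rho of enri-2 with mip-1 was 0.09 in LiCl worms (exact permutation p = 0.919, adjusted p = 0.951) and -0.77 in control worms (exact permutation p = 0.103, adjusted p = 0.51). Its rho with syp-6 was 0.09 in LiCl worms (exact permutation p = 0.919, adjusted p = 0.951) and -0.37 in control worms (exact permutation p = 0.497, adjusted p = 0.785). Without the 2 end arrays, r with mip-1 was -0.50 in LiCl worms and -0.99 in control worms, and r with syp-6 was 0.20 in LiCl worms and -0.81 in control worms.

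With picd-1 the r of enri-2 was positive in both groups, 0.65 in LiCl worms (exact permutation p = 0.164, adjusted p = 0.41; rho = 0.60, exact permutation p = 0.242, adjusted p = 0.637) and 0.51 in control worms (exact permutation p = 0.297, adjusted p = 0.637; rho = 0.60, exact permutation p = 0.242, adjusted p = 0.637). With memi-2 probe 1 it was 0.35 in LiCl worms (exact permutation p = 0.549, adjusted p = 0.813; rho = 0.31, exact permutation p = 0.564, adjusted p = 0.806) and 0.60 in control worms (exact permutation p = 0.219, adjusted p = 0.506; rho = 0.66, exact permutation p = 0.175, adjusted p = 0.583). Without the 2 end arrays, r with picd-1 was -0.24 in LiCl worms and 0.82 in control worms, and r with memi-2 probe 1 was -0.33 in LiCl worms and 0.96 in control worms.

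**Figure D3:**
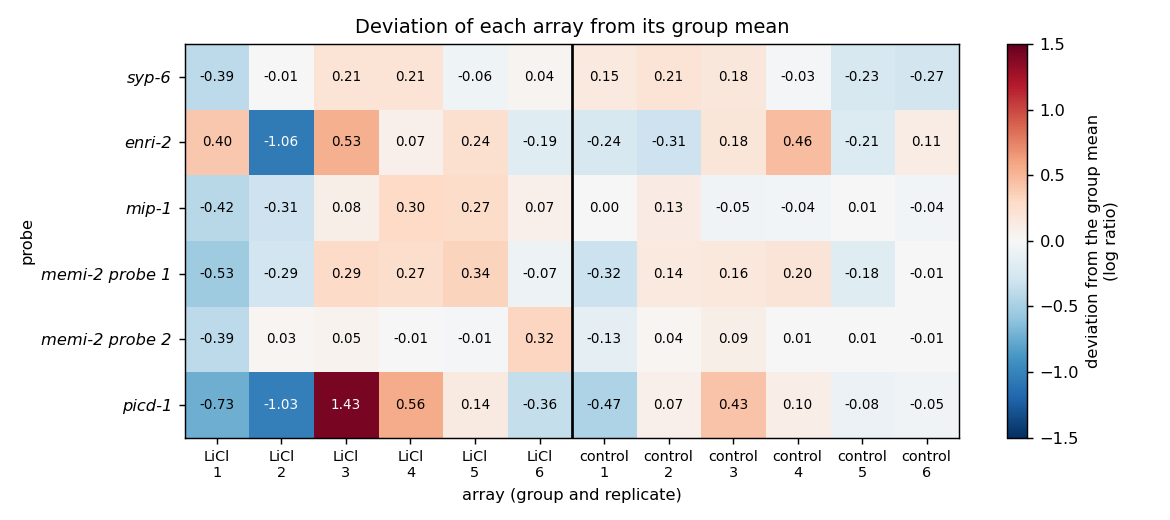
Each cell gives the deviation of an array (columns, LiCl arrays left of control arrays) from the mean of its own group for a probe (rows), in log ratio units, with blue below and red above the mean. LiCl replicate 1 is below its group mean in 5 of the 6 probes and above it in enri-2, and the control cells are mostly paler than the LiCl cells.

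Likeness to all other named probes was measured as the correlation of deviations from the group means over the 12 arrays, for 8520 named probes of other genes. It describes these arrays only. The closest to syp-6 was Y32B12B.4 (0.91), to enri-2 C27A7.2 (0.91) and to mip-1 K09C6.3 (0.92), followed by pygo-1 (0.92). The closest to memi-2 probe 1 was T14B4.1 (0.93), to memi-2 probe 2 T04F3.1 (0.92) and to picd-1 Y57G11C.18 (0.90).

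F15E6.9 and T07F8.4 came next for syp-6, Y69E1A.1 and Y105C5A.1 for enri-2, and Y50D7A.8 for mip-1. F54H12.4 and C50A2.3 came next for memi-2 probe 1, slmp-1 and F33H12.1 for memi-2 probe 2, and R144.10 and gpch-1 for picd-1. Their correlations lay between 0.86 and 0.93, and no gene was named for more than 1 probe.

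Set against the same 8520 probes, several of the genes and relatives lay close to each other and others did not. The pairs below were chosen after their values were seen. memi-2 probe 1 had a correlation of deviations of 0.87 with mip-2, and only 9 of the 8520 probes were closer to it. With picd-1 the value was 0.81, with 49 probes closer, and with mip-1 0.79, with 63 closer. Arrays with large deviations weigh most in this measure. Within groups, the r of memi-2 probe 1 with mip-1 was 0.94 in LiCl worms and -0.01 in control worms. With picd-1 it was 0.82 in LiCl worms and 0.86 in control worms. LiCl replicate 1, an array of low weight, deviated by -0.53 for memi-2 probe 1 and -0.60 for mip-2. It deviated by -0.73 for picd-1 and -0.42 for mip-1, and the part of array quality in this likeness was not tested. syp-6 had 0.68 with its relative syp-5, with 78 probes closer. In contrast, the 2 memi-2 probes had 0.49 with each other, with 784 probes closer to probe 1 than probe 2 was. enri-2 had 0.62 with picd-1, with 278 probes closer, and 0.04 with enri-1, with 3926 closer.

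Other genes of the same processes were taken from 4 lists, without the 5 genes themselves. Of 336 names in the lists 34 genes carried a named probe, among them the 5 relatives described above. None of the 34 passed the test between LiCl and control worms in either direction (limma with Benjamini-Hochberg adjustment), against 8% of all probes. An unadjusted p under 0.05 was found for 7 of them, against 22.8% of all probes. The mean was lower in LiCl worms for 28 of the 34, against 48.3% of all probes, the share to set beside the counts of single lists below. The median difference was -0.18, against 0.02 over all probes. The lists were written with earlier results of these data known.

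Of 8 genes of the synaptonemal complex and meiotic chromosomes, 7 were lower on average, with a median difference of -0.31. rmh-2, of the complex that processes recombination intermediates, was nearest to the threshold (-0.47 ± 0.15, SE, limma, adjusted p = 0.0697). dsb-3, needed for meiotic DNA breaks, was the only one higher on average (0.68 ± 0.51, SE, limma, adjusted p = 0.483). The named genes of this and the next paragraph that did not pass were chosen after their values were seen.

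Of 20 genes of small RNA pathways, 16 were lower on average, with a median difference of -0.14. uad-2, which acts in the transcription of piRNA genes, differed by -0.90 ± 0.29 (SE, limma, adjusted p = 0.0789) and passed without LiCl replicate 2 (-1.06, limma, adjusted p = 0.0358). pid-2, of piRNA silencing, differed by -0.48 ± 0.15 (SE, limma, adjusted p = 0.0708). All 4 germ granule genes were lower on average (median difference -0.10), and 1 of them, lotr-1, also stood in the small RNA list. Of 3 maternal and oocyte genes 2 were lower on average (median difference -0.26).

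**Figure D4:**
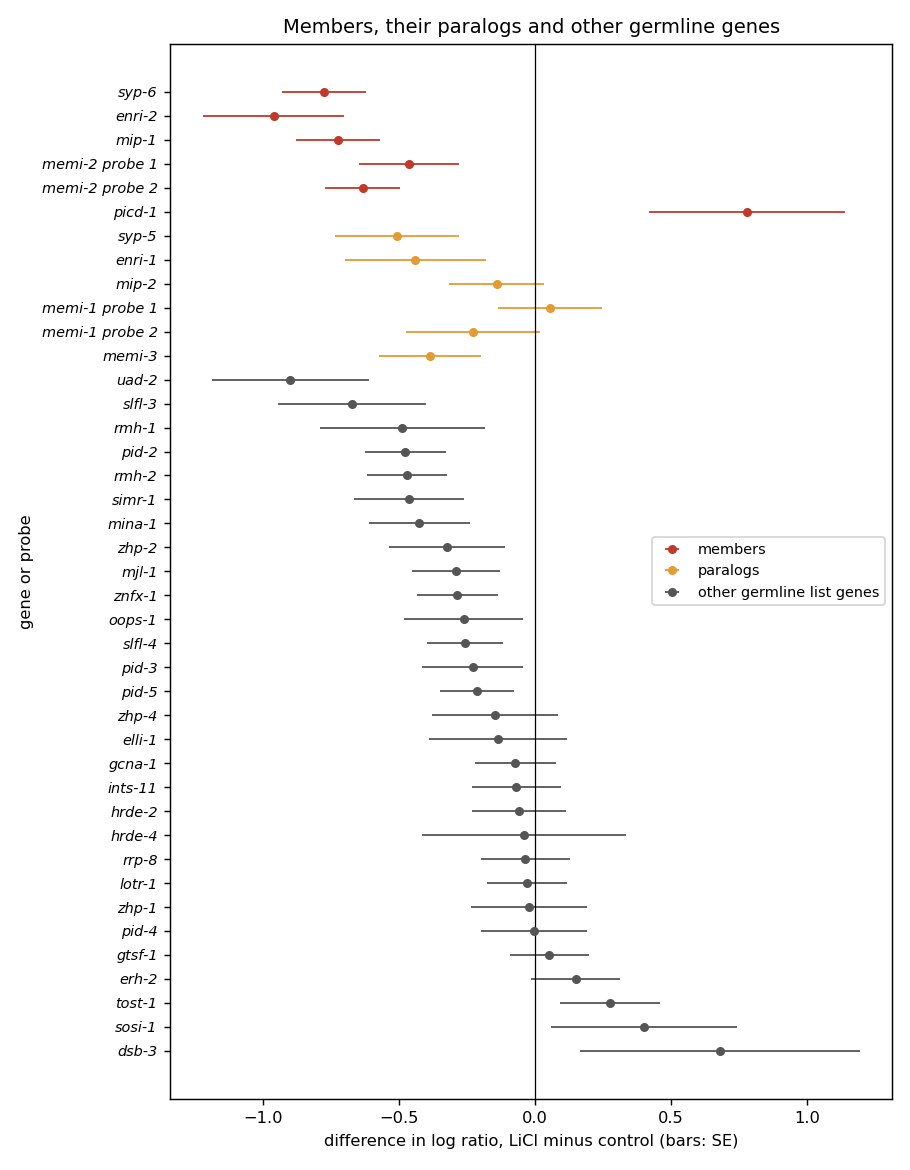
The difference in log ratio, LiCl minus control (horizontal axis, bars are SE), is plotted for the 6 probes, the 6 probes of their relatives and 29 other germline list genes. enri-2, at -0.96, lies furthest below 0 and uad-2 follows at -0.90, while picd-1, at 0.78, and dsb-3, at 0.68, lie furthest above 0.

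Markers of sperm and of other tissues, which could alter whole-worm levels, were followed beside these genes. Of 4 uterine lumen genes (ule) 2 fell, ule-5 by 1.72 ± 0.21 (SE, limma, adjusted p = 0.000468) and ule-3 by 1.65 ± 0.26 (SE, limma, adjusted p = 0.00231), and none rose. ule-1 (0.13) and ule-4 (-0.19) were not called, and 3.5% of all probes were called lower. The summed log ratio of the 4 genes ran from -3.67 to -0.46 in LiCl worms, against 0.30 to 2.58 in control worms, with no overlap. For single probes, all LiCl arrays lay below all control arrays in 3% of the 22370. The sum includes the called genes, and the list was written with earlier results of these data known, so it is a description only. Of 10 sperm genes, spe-51 rose by 2.07 ± 0.51 (SE, limma, adjusted p = 0.0281) and spe-57, fitted without control replicate 1 which lacked a value, fell by 0.88 ± 0.23 (SE, limma, adjusted p = 0.0383). The summed log ratio of the sperm genes, with missing values left out of the sum, ran from 1.12 to 12.6 in LiCl worms, against 0.85 to 9.85 in control worms. Of 24 neuropeptide genes, nlp-55 rose by 0.72 ± 0.19 (SE, limma, adjusted p = 0.0385). The summed log ratio of the neuropeptide genes ran from -30.48 to -22.03 in LiCl worms, against -31.28 to -25.74 in control worms. Over all probes 4.5% were called higher and 3.5% lower, and nothing is read from the single calls among sperm and neuropeptide genes. The yolk protein, cuticle and body wall muscle lists had no named probe. The part of the uterine and sperm genes' changes in the values of the 5 genes was not tested.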

How the data were processed

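The deposited values are processed log ratios per probe, read as log2, from 2-colour arrays of 12 samples, 6 LiCl and 6 control. The authors' normalization, filters and log base are not stated in any source used here, and spot intensities were not used. The number of arrays limits the precision. Probe names came from the platform annotation (8757 probes, 8724 updated by gene identifier to WBcel235 symbols, 33 kept as given).

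All 22370 probes met the minimum of 4 measured arrays in either group. The deposited values entered limma 3.58.1 (R 4.3.3) unchanged, in a two-sided test by eBayes after lmFit, without covariates. Each probe had a single variance for both groups. Group differences and group means against 0 were adjusted over all probes by Benjamini-Hochberg at 0.05. The code was tested on simulated arrays with the same spread in both groups, so unlike spreads such as those of these data were not tested. Correlations were tested by exact permutation of the pairings within each group, adjusted over 30 tests. Python 3.11.15 and matplotlib 3.10.9 made the figures.

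The genes, lists and alternatives were chosen with earlier results of these data known. The 5 genes and their relatives were named whatever their values. Up to 6 called genes of each germline list (none was called) and the 3 probes closest to each of the 6 probes were named by rule. For a gene with several probes the lists used the probe of highest mean, and genes outside these rules were chosen after their values were seen. Alternatives were quantile normalization, centring, scaling, array weights, probe filters, another variance model, a replicate block, 8 arrays and leaving out 1 array.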

Additional observations from a re-analysis of the deposited data

Results flagged for a closer look

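In mip-1, control replicate 2 (0.992) stood apart from the other 5 control arrays, which lay between 0.81 and 0.88. It was flagged against a small spread, as the SD of the 6 control arrays was 0.067. It was the only such array among the 24 comparisons of arrays within a group, made over the 6 probes and the 6 probes of their relatives. Chance gives about 1 such array in 20 comparisons, so nothing is read from it. Without this array the mip-1 difference was -0.70, against -0.72 with it.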

How the results depend on the processing

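The sign of all 6 differences held under every alternative run, and 106 of 108 values moved by less than the spread between replicates. The exceptions came from the 8 arrays of highest weight, with -0.50 for mip-1 and 1.47 for picd-1. All 168 values of the levels against the reference kept their sign and their side of the threshold. These came from quantile normalization, centring on the median and leaving out 1 array. The levels of single probes were not compared with array weights or on the 8 arrays. Those 8 arrays gave 838 changed probes, 521 higher and 317 lower, against 1789, 1006 and 783. Leaving out 1 array gave 1181 to 1600 changed and 479 to 681 lower probes, fewest without control replicate 4 (1181 changed, 484 lower) and control replicate 6 (479 lower), and 0 to 1 germline list genes lower. Keeping the upper 75% of probes by level left 836 probes below the reference in LiCl and 865 in control, by its construction. mip-2 turned to 0.063 on the 8 arrays, and memi-1 probe 1 to -0.059 with quantile normalization and, over arrays left out, ran from -0.016 to 0.18. The median correlation in LiCl worms turned to -0.053 without the 2 arrays farthest from the median. Same-numbered arrays deviated together (correlation over 0.1) in 1 of 6 pairs, so the numbers were not treated as pairs, and with the replicate block 1405 probes changed.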

Other observations

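In the WBcel235 annotation each of the 3 memi genes lies beside a cytochrome P450 gene of the cyp-31A group: cyp-31A3 beside memi-1, cyp-31A5 beside memi-2 and cyp-31A2 beside memi-3. The neighbours of syp-6 include mei-2, of the meiotic spindle severing enzyme katanin, and those of mip-1 include mel-28, of the nuclear envelope. None of these neighbours carries a named probe here. Of the genes next to the 5 genes only T24C2.3, beside enri-2, does, and it had a mean log ratio of 0.21 in LiCl worms and 0.20 in control worms (difference 0.02 ± 0.45, SE, limma, adjusted p = 0.988).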
